A study of Mus musculus with 4 samples.

Results

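AP-1 is a family of leucine zipper transcription factors, and 10 of its genes were followed here by symbol, Fos, Fosb, Fosl1, Fosl2, Jun, Junb, Jund, Atf3, Jdp2 and Batf3, out of 49585 genes listed. Of these 10, 9 had enough fragments to be tested, among 15886 genes tested in all, and Batf3 did not. The cells were C2C12, a mouse myoblast line of C3H origin that fuses into myotubes when serum is lowered. Cells with a retrovirus for overexpression of C/EBPβ, itself a leucine zipper factor, were compared with cells that carried the empty vector pLXSN, with 2 libraries in each group. All cells, controls included, were kept in 10% fetal bovine serum, put under 1200 µg/ml G418 for 7 days, and grown on for 2 days as drug-resistant pools. They then spent 2 days in 2% horse serum, begun at 90% confluency, before RNA was taken for stranded mRNA sequencing. Each pool is a mixture of transduced cells rather than a clone. Whether the libraries of a group stem from separate cultures is not stated, and the p-values therefore reflect the spread among these libraries alone, possibly a technical one.

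AP-1 proteins bind DNA as pairs. Fos proteins need a Jun partner, whereas Jun proteins can also pair with each other, and ATF3, JDP2 and BATF3 join Jun partners and are often found as repressors. Fos, Fosb, Jun and Junb are known as immediate early genes, which serum and stress switch on within minutes through MAP kinases, and Jun and Fos are known to oppose MyoD when overexpressed in myoblasts.

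The libraries held 50493417 and 36461091 assigned fragments in the C/EBPβ-overexpressing cells, against 45448661 and 51537847 in the empty-vector cells. A count of 3 fragments, taken as the lowest level that can be told from 0, came to between 0.0582 and 0.0823 CPM of assigned fragments. CPM is the usual depth-scaled count, and all levels below use library sizes scaled by TMM. Floors and intervals on raw counts cover counting error only. Cebpb, the overexpressed gene, was at 502 and 442 CPM in the overexpressing libraries and at 42.7 and 41.3 CPM in the empty-vector libraries. Fragments were counted by strand, and no base of the members' exons is shared with another annotated gene on the same strand. Most of the exonic length of Jund (52.6%) lies opposite Gm11175, which had 2.51 and 2.08 CPM in overexpressing cells against 2.11 and 2.04 CPM in empty-vector cells.

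Of the 9 tested members, 2 were higher in C/EBPβ-overexpressing cells, Fosl2 and Fosl1, and 3 were lower, Atf3, Fos and Jund, at an adjusted p below 0.05 by edgeR's quasi-likelihood test. Across all tested genes 43.3% passed the same threshold, 22.4% as higher and 20.9% as lower, a background against which 5 of 9 members says little about the family as such. The members' median log2 fold change was -0.20, beside 0.01 for all tested genes. Without empty-vector replicate 1, 1 member was called higher and 1 lower, and without empty-vector replicate 2, 2 were higher and 1 lower. Without overexpressing replicate 2, 2 were lower, Atf3 and Junb.

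Promoter windows from RefSeq (GRCm38.p6), 250 bases before to 50 after each start, were searched on both strands for 6 motifs. Windows existed for 9 of the 10 members, 11 windows in all, and Fosl1 had none. Some starts differed from those of the genes as counted. The Jund window ended at chr8:70697788, before the counted gene begins at chr8:70698949. Of the 250 bases before the start, all in the Fosl2 window and 163 in the Batf3 window lay in annotated exons. The AP-1 site TGACTCA, which 5.20% of all 32851 windows hold, was found in none of the members' windows. Neither were the CRE TGACGTCA (1.79% of windows), the C/EBP site TTGCGCAA (0.183%) and the CArG box (1.63%). Only exact matches inside these windows were searched for, so variant sites and sites further out were not covered. The CRE core TGACG, which every full CRE also contains, held by 20.8% of all windows, was found in Fos, Fosb, Junb, Atf3 and 1 of the 3 Jdp2 windows. The C/EBP-ATF site TGATGCAA, which C/EBPβ and ATF4 can bind as a pair and which 0.895% of windows hold, was found in Atf3 and in Jdp2. Below, 3 stretches are shown, from Fos and Atf3 as members that were lower and from Jdp2 as the other member with a C/EBP-ATF site, and their capitals mark these matches on either strand. The Fos stretch lies at chr12:85473640-85473889 on the plus strand, directly before its start. The Atf3 stretch lies at chr1:191183334-191183583 on the minus strand, before a RefSeq start inside the annotated gene, with 7 of its bases in an annotated exon, and the Jdp2 stretch at chr12:85599372-85599401 on the plus strand.
Fos: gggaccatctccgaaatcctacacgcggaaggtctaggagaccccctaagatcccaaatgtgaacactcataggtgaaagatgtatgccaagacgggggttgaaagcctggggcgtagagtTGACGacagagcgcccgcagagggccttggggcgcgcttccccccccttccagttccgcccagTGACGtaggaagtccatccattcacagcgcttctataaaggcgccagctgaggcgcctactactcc
Atf3: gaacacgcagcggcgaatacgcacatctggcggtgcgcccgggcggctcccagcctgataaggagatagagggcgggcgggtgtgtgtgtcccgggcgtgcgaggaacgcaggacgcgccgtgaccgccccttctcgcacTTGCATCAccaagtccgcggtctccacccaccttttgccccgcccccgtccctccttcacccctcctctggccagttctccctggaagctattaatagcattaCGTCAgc
Jdp2: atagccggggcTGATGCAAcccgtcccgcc
The Fos bases hold the core at -129 and -66 from the start. The Atf3 bases hold the C/EBP-ATF site at -110 to -103 and a core at -7, and the Jdp2 stretch holds the C/EBP-ATF site at -33 to -26. A match describes letters only, and binding was not measured here.

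The proteins of the Fos subfamily form only mixed pairs, and 2 of its 4 genes were higher and 1 lower. Fosl2 (chr5:32135801-32157842, plus strand, GRCm38 as all positions here) encodes a Fos-related protein without the strong activation domain of Fos. It was at 251 and 222 CPM in overexpressing cells and at 134 and 121 CPM in empty-vector cells. Both overexpressing libraries lay well above both controls, by 0.89 on the log2 scale (SE 0.10, 95% interval 0.66 to 1.12, adjusted p = 0.000416). Fosl2 was called under 13 of 13 alternative settings, with log2 fold changes between 0.81 and 0.97.

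Fosl1 (chr19:5447703-5455945, plus strand) encodes the other Fos-related protein of this type. It was at 25.2 and 18.3 CPM in overexpressing cells and at 10.4 and 13.3 CPM in empty-vector cells. The groups did not overlap, although the 2 libraries within each group lay further apart than for Fosl2. Of the 50-base windows of its transcripts in GENCODE M21, 52.6% match Ccdc85b on the other strand. That gene had 29.5 and 25.6 CPM in overexpressing cells against 13.2 and 14.1 CPM in empty-vector cells. The part of Ccdc85b in the Fosl1 values was not tested. In the GENCODE M12 annotation used for the stranded counting, Fosl1 shares 0 exonic bases with another gene on either strand. Its log2 fold change was 0.88 (SE 0.18, 95% interval 0.43 to 1.32, adjusted p = 0.00964), and without empty-vector replicate 1 it was 0.71 with an adjusted p of 0.0573.

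Fos, the founding immediate early gene of the family, whose upstream bases with a pair of CRE cores are printed above, was lower (gene at chr12:85473890-85477273, plus strand). It had 216 and 120 fragments, or 4.13 and 3.28 CPM, in overexpressing cells and 278 and 263 fragments, or 6.24 and 5.20 CPM, in empty-vector cells. Both overexpressing libraries lay below both controls, with a log2 fold change of -0.61 (SE 0.18, 95% interval -1.03 to -0.19, adjusted p = 0.0274). The call rests on all but 1 of the libraries. The adjusted p was 0.0515 without overexpressing replicate 2, 0.155 without empty-vector replicate 1 and 0.0511 without empty-vector replicate 2.

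Fosb (chr7:19302696-19310051, minus strand), whose protein is close to Fos, had 113 and 57 fragments in overexpressing cells and 81 and 63 in empty-vector cells. These were 2.16 and 1.56 CPM against 1.82 and 1.25 CPM, so the groups overlapped. Its log2 fold change was 0.31 with a 95% interval of -0.31 to 0.93 (adjusted p = 0.378), an interval that holds values of either sign.

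The Jun proteins are the common partners of the others, and 1 of their 3 genes was called. Jund (chr8:70698949-70700616, plus strand), which is known to be expressed steadily rather than switched on by serum, was at 221 and 189 CPM in overexpressing cells and at 258 and 263 CPM in empty-vector cells. The overexpressing libraries were lower by a small margin, with a log2 fold change of -0.35 (SE 0.10, 95% interval -0.58 to -0.11, adjusted p = 0.026). This call was lost without overexpressing replicate 2 (adjusted p = 0.0617), without empty-vector replicate 1 (0.0859), without empty-vector replicate 2 (0.115) and with library sizes alone for scaling (0.058).

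Junb (chr8:84974484-84978718, minus strand), an immediate early gene whose protein often acts against Jun, was at 169 and 197 CPM in overexpressing cells and at 245 and 211 CPM in empty-vector cells. Both overexpressing libraries lay below both controls, but the test did not call it, with a log2 fold change of -0.32 (SE 0.11, 95% interval -0.58 to -0.05, adjusted p = 0.0544). The adjusted p was 0.0418 with DESeq2, 0.046 with no filter on low counts and 0.000433 without overexpressing replicate 2, where the log2 fold change was -0.45.

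Jun (chr4:95049034-95052222, minus strand), the founding gene of its subfamily, was at 239 and 207 CPM in overexpressing cells and at 209 and 203 CPM in empty-vector cells. One overexpressing library lay between the controls, so the groups overlapped. The log2 fold change was 0.12 (95% interval -0.11 to 0.34, adjusted p = 0.375), and an increase as large as that of Fosl2 lies outside this interval.

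Atf3 (chr1:191170296-191218039, minus strand), whose upstream bases hold the C/EBP-ATF site, encodes a stress-induced factor that binds ATF/CRE sites as well as AP-1 sites. It was at 7.93 and 5.09 CPM in overexpressing cells and at 13.2 and 13.9 CPM in empty-vector cells. Both overexpressing libraries were well below both controls, and the difference was the widest among the tested members. Its level was 2.06-fold lower, a log2 fold change of -1.04 (SE 0.20, 95% interval -1.51 to -0.57, adjusted p = 0.00559). It was called under 13 of 13 alternatives, with log2 fold changes between -1.41 and -0.79 and a highest adjusted p of 0.0484.

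Jdp2 (chr12:85599105-85639878, plus strand, 121.8 kb from Fos), whose protein pairs with Jun and is known as a repressor of AP-1 transcription, was at 90.3 and 92.3 CPM in overexpressing cells and at 102 and 107 CPM in empty-vector cells. The overexpressing libraries lay below both controls, and the libraries within each group lay close together. The log2 fold change of -0.20 (SE 0.08, 95% interval -0.38 to -0.02) did not pass, with an adjusted p of 0.0673. Batf3 (chr1:191097847-191108945, plus strand, 61.4 kb from Atf3), known from a class of dendritic cells, had 2 and 1 fragments in overexpressing cells and 0 and 4 in empty-vector cells. These counts are too low for any comparison, and Batf3 was not tested.

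**Figure D1:**
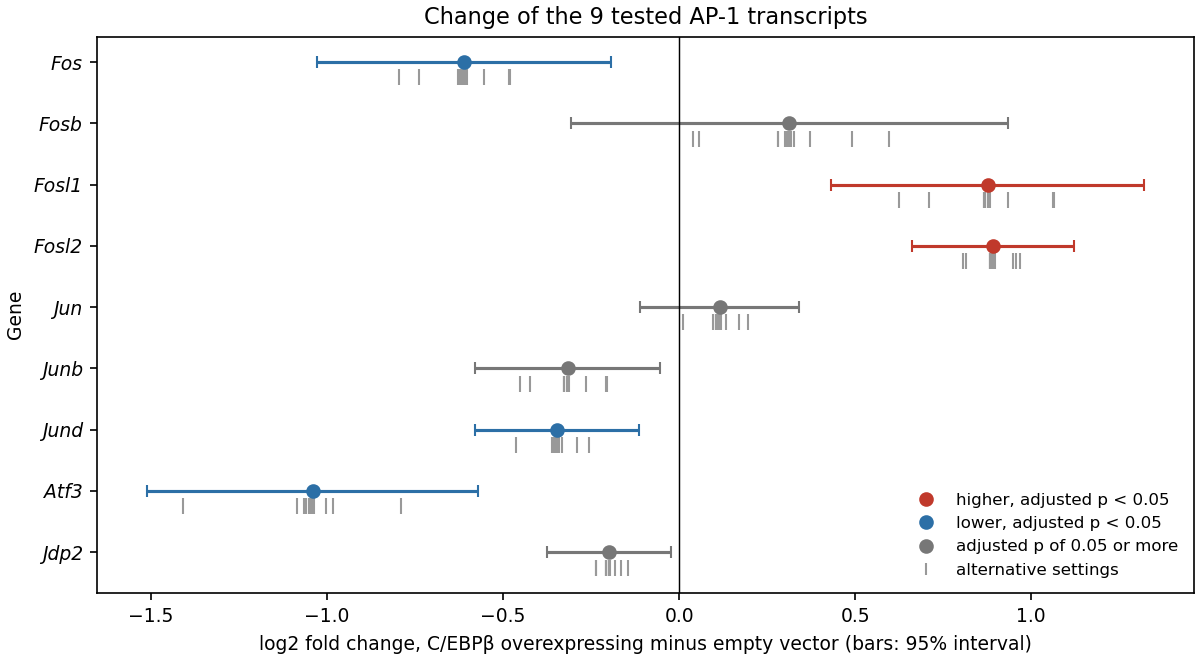
Log2 fold change of the 9 tested AP-1 members, overexpressing over empty-vector cells, with 95% intervals from the quasi-likelihood fit (bars) and the values under 13 alternative settings (ticks). The intervals of Fosl2, Fosl1, Fos, Jund, Atf3, Junb and Jdp2 lie on one side of 0, and those of Fosb and Jun cross it, while Junb and Jdp2 miss the threshold after adjustment over all genes.

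Per length of annotated exon, Jund was the most abundant member, with 133 and 113 CPM per kilobase (kb) in overexpressing cells and 155 and 158 in empty-vector cells. Order and shares on this scale depend on that length, 9680 bases for Fosl2 and 1668 for Jund. The length of the transcripts present was not measured. In CPM alone, Fosl2 was above Jund in overexpressing cells, with means of 237 and 205. Then came Junb at 73.3 and 85.7 against 107 and 91.5 CPM per kb, Jun at 75.1 and 65.0 against 65.6 and 63.8, and Jdp2 at 48.0 and 49.1 against 54.5 and 57.0, in each case with the overexpressing cells before the empty-vector cells. Below these stood Fosl2 at 25.9 and 23.0 CPM per kb against 13.9 and 12.5 and Fosl1 at 14.8 and 10.7 against 6.11 and 7.80. Atf3 followed at 3.68 and 2.36 CPM per kb in overexpressing cells against 6.10 and 6.45 in empty-vector cells, then Fos at 1.76 and 1.39 against 2.65 and 2.21, and Fosb at 0.347 and 0.25 against 0.291 and 0.20. By mean level the order was the same in both groups. Only Junb and Jun in overexpressing cells and Fosl1 and Atf3 in empty-vector cells were neighbours whose libraries overlapped.

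**Figure D2:**
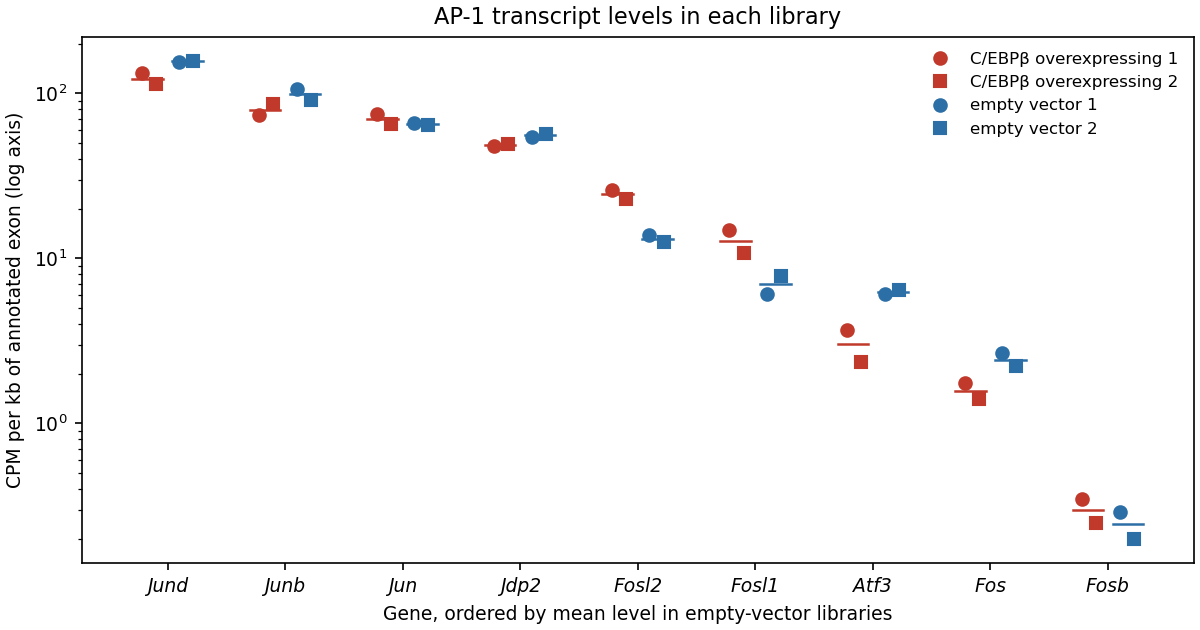
Transcript level in CPM per kb of annotated exon, on a log axis, of the 9 tested AP-1 members in each library (points) with group means (lines), C/EBPβ-overexpressing libraries left of empty-vector libraries and genes ordered by their level in the empty-vector libraries. Fosl2 and Fosl1 stand above their controls, Atf3, Fos and Jund below, and the groups of Fosb and Jun overlap.

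Summed within subfamilies on the same scale, the 4 Fos genes reached 42.8 and 35.4 CPM per kb in overexpressing cells and 22.9 and 22.7 in empty-vector cells. The 3 Jun genes reached 281 and 264 CPM per kb in overexpressing cells and 327 and 313 in empty-vector cells. The smaller sum was thus higher and the larger lower in the overexpressing libraries, but the members did not all move with their sum. Fos itself was lower (log2 fold change -0.61). Jun was not lower (log2 fold change 0.115, with overlapping groups), Junb was not called, and Jund lost its call under some alternative settings. Fos genes made up 11.4% and 10.1% of the AP-1 sum in overexpressing cells and 5.59% and 5.68% in empty-vector cells, and Fosl2 with Fosl1 held most of that in both. The share of Fos itself within its subfamily was 4.11% and 3.95% in overexpressing cells and 11.6% and 9.75% in empty-vector cells. Atf3, Jdp2 and Batf3 together came to 51.7 and 51.5 CPM per kb in overexpressing cells and 60.6 and 63.5 in empty-vector cells, mostly Jdp2. The sum of all 10 was 375 and 351 CPM per kb against 411 and 399. These sums are descriptions of transcript level with no test, and in bulk RNA fewer cells of a type and less RNA per cell cannot be told apart.

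**Figure D3:**
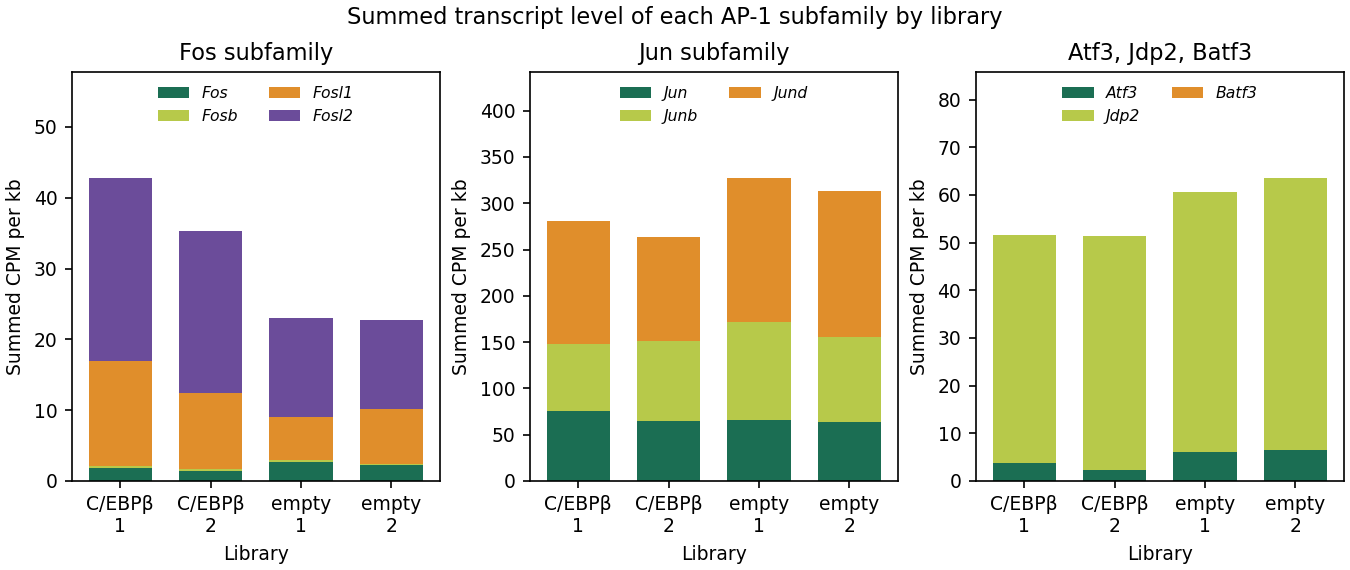
Summed transcript level in CPM per kb of the Fos, Jun and ATF3, JDP2 and BATF3 subfamilies in each library, overexpressing libraries left of empty-vector libraries. The Fos sum is higher in both overexpressing libraries (42.8 and 35.4 against 22.9 and 22.7) and the Jun sum is lower (281 and 264 against 327 and 313).

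Cebpb on this scale was at 334 and 294 CPM per kb in overexpressing cells and at 28.4 and 27.4 in empty-vector cells. That is 89.0% and 83.8% of the summed AP-1 level in overexpressing cells and 6.92% and 6.88% in empty-vector cells. Cebpb fragments are those aligned to the mouse gene, whichever copy they came from.

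Among 20 tested AP-1 partners and related leucine zipper genes other than the members followed here, 2 were higher and 5 were lower, with a median log2 fold change of 0.04. Their shares were 10% higher and 25% lower, beside 22.4% and 20.9% over all tested genes. Maf, a large Maf factor, was at 202 and 204 CPM in overexpressing cells and 87.7 and 81.9 CPM in empty-vector cells (log2 fold change 1.26, SE 0.08, adjusted p = 3.78e-05). Bach2, a repressor, was at 5.80 and 3.88 CPM against 1.53 and 1.01 CPM (log2 fold change 1.96). Mafa was lower, at 1.93 and 3.23 CPM against 14.3 and 12.1 CPM (log2 fold change -2.38), as was Bach1, the heme-binding repressor, at 50.8 and 58.9 CPM against 76.5 and 85.2 CPM (log2 fold change -0.56). The other 3 called lower were Atf6, Nfe2l1 and Mafk, and without empty-vector replicate 1 the adjusted p was 0.0571 for Nfe2l1 and 0.0576 for Mafk, leaving 3 lower. Scaled by library sizes alone, 4 were called higher.

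MAP kinases, their activating kinases and the ternary complex factors control the immediate early members. The list used here also held Srf, Mrtfa and Mrtfb. Of 22 tested, 4 were higher and 4 lower, with a median log2 fold change of -0.01. These were 18.2% each way, against 22.4% higher and 20.9% lower among all tested genes. Mapk12, a p38 kinase of muscle, was at 27.2 and 28.7 CPM in overexpressing cells and at 46.4 and 48.9 CPM in empty-vector cells (log2 fold change -0.77, adjusted p = 0.000352). Mapk13, another p38 kinase, had 80 fragments over both overexpressing libraries and 2 over both controls, a ratio of 42.9 with a 95% counting interval of 11.5 to 360. Elk3, a ternary complex factor, was at 82.8 and 83.2 CPM against 62.2 and 64.0 CPM (log2 fold change 0.40, adjusted p = 0.00403). Map2k6, which activates p38 kinases, was at 4.08 and 2.76 CPM against 1.93 and 1.86 CPM (log2 fold change 0.87, adjusted p = 0.0173). Its adjusted p was 0.125 without overexpressing replicate 1, 0.0738 without empty-vector replicate 1 and 0.0985 without empty-vector replicate 2. The other 4 called genes, Mapk3, Mapk8, Mapk11 and Map2k4, each lost the call without at least 1 library. The counts were 3 higher and 1 lower without overexpressing replicate 1, and 2 higher and 1 lower without empty-vector replicate 2.

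Dual-specificity phosphatases, which switch MAP kinases off, were lower in 5 of 11 cases and higher in 1, with a median log2 fold change of -0.35. That is 45.5% lower and 9.09% higher, beside 20.9% and 22.4% of all tested genes. Dusp8, at 19.7 and 19.7 CPM in overexpressing cells against 34.6 and 38.1 CPM in empty-vector cells, was lower (log2 fold change -0.88, adjusted p = 0.000286). Dusp14, at 11.7 and 13.8 CPM against 23.8 and 28.0 CPM, had a log2 fold change of -1.03, and Dusp5, at 6.66 and 6.51 CPM against 11.6 and 10.9 CPM, one of -0.77. Dusp7 was higher, with 22.3 and 26.0 CPM in overexpressing cells against 18.1 and 14.9 CPM in empty-vector cells (log2 fold change 0.55, adjusted p = 0.0107), and its adjusted p was 0.0746 without empty-vector replicate 2. Dusp9 and Dusp10 also lost their calls without that library (adjusted p of 0.105 and 0.123), leaving 3 lower and 0 higher.

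Of 23 tested immediate early genes outside the family, 11 were lower and 4 higher, with a median log2 fold change of -0.47. That is 47.8% lower and 17.4% higher, against 20.9% lower and 22.4% higher among all tested genes. This list, like the members and the other lists, was chosen with earlier results of these data known, so such contrasts are descriptions only. Klf4 was at 89.3 and 79.2 CPM in overexpressing cells and 162 and 172 CPM in empty-vector cells (log2 fold change -0.99, adjusted p = 0.000171). Egr3 was at 6.68 and 8.07 CPM against 20.2 and 17.8 CPM (log2 fold change -1.37), and Arc at 1.53 and 2.30 CPM against 5.54 and 6.84 CPM (log2 fold change -1.72). Egr1, named in addition as a well-known gene of the list, was at 125 and 117 CPM against 228 and 174 CPM (log2 fold change -0.73, adjusted p = 0.00431). Another 8 genes of the list were not called, among them Egr2 and Ier2, with log2 fold changes of -0.19 and -0.01. Ccn1, a matricellular protein gene, was higher at 496 and 580 CPM in overexpressing cells against 276 and 275 CPM in empty-vector cells (log2 fold change 0.96). Myc, Socs3 and Sgk1 were the other 3 that were higher, Sgk1 with an adjusted p of 0.0628 without empty-vector replicate 2. Of the genes called lower, Klf10 and Nr4a1 lost the call without either empty-vector library, and Nr4a2 and Rhob without empty-vector replicate 2, where 7 were lower.

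Among 19 tested genes known in textbooks as AP-1 targets, 7 were higher and 3 lower, with a median log2 fold change of 0.16. In percent, 36.8% were higher and 15.8% lower, where all tested genes gave 22.4% and 20.9%. Fgf7, a growth factor, was at 141 and 118 CPM in overexpressing cells and 11.1 and 10.1 CPM in empty-vector cells (log2 fold change 3.61, SE 0.11, adjusted p = 1.56e-06). Ccl2, a chemokine, was at 40.2 and 35.3 CPM against 6.62 and 8.07 CPM (log2 fold change 2.36), and Spp1, which encodes osteopontin, at 3612 and 3930 CPM against 1378 and 1352 CPM (log2 fold change 1.47). Mmp13, a collagenase, was at 0.976 and 1.31 CPM against 0.157 and 0.0989 CPM (log2 fold change 3.13). Mmp9 and Mmp3 were also higher, both from few fragments in the controls. Mmp9 had 26 and 15 fragments in overexpressing cells against 3 and 2 in empty-vector cells. Mmp3 had 86 and 202 against 6 and 2, so its overexpressing libraries lay far apart. Mmp3 lost the call without either empty-vector library, with log2 fold changes of 6.36 without replicate 1 and 4.66 without replicate 2. Lower were Cd44, at 367 and 363 CPM in overexpressing cells against 570 and 583 CPM in empty-vector cells (log2 fold change -0.66), Hbegf, at 6.14 and 9.65 CPM against 17.8 and 18.8 CPM (log2 fold change -1.23), and Mmp12, with 2 fragments against 24, a ratio of empty-vector over overexpressing cells of 11.2 (95% counting interval 2.78 to 97.8). Without overexpressing replicate 2 the number called lower was 7, and without overexpressing replicate 1 it was 5. Many of these genes have other regulators, and membership of the list rests on textbook knowledge, not on binding measured here.

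Atf3 also belongs to the integrated stress response. Of 10 genes of that response other than Atf3, 5 were lower and 1 higher, with a median log2 fold change of -0.58. The shares, 50% lower and 10% higher, stand beside 20.9% and 22.4% over all tested genes. Chac1, which degrades glutathione, was at 21.6 and 25.1 CPM in overexpressing cells and 36.1 and 41.2 CPM in empty-vector cells (log2 fold change -0.73, adjusted p = 0.00157). Gadd45a, at 150 and 201 CPM against 281 and 303 CPM (log2 fold change -0.73), had an adjusted p of 0.0527 without empty-vector replicate 2. Ppp1r15a, at 33.9 and 28.2 CPM against 43.4 and 41.0 CPM (log2 fold change -0.44), had one of 0.064 without empty-vector replicate 1. Ddit3, at 39.8 and 33.6 CPM in overexpressing cells against 26.5 and 27.4 CPM in empty-vector cells, was higher (log2 fold change 0.45, adjusted p = 0.00984), with an adjusted p of 0.0568 without empty-vector replicate 1. Atf4, the factor that drives the response and also one of the leucine zipper genes counted above, was at 444 and 445 CPM against 427 and 500 CPM, with overlapping groups and an adjusted p of 0.688. The other 2 called lower, Trib3 and Fgf21, lost the call without empty-vector replicate 2 (adjusted p of 0.081 and 0.247), and Fgf21 also without empty-vector replicate 1 (0.153). The number lower was 3 without empty-vector replicate 1 and 2 without empty-vector replicate 2.

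**Figure D4:**
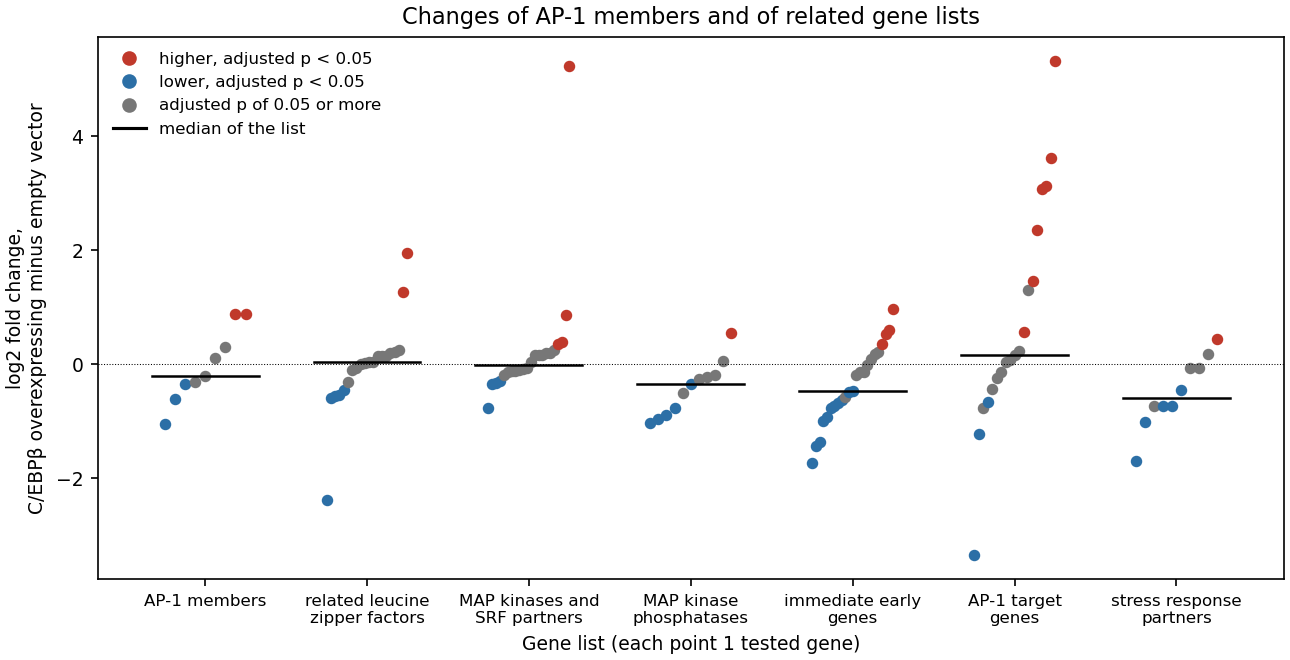
Log2 fold changes, overexpressing over empty-vector cells, of the tested genes in the lists around AP-1, each point a gene, with the list's median. Immediate early genes, phosphatases and stress response genes lie mostly below 0 (medians -0.47, -0.35 and -0.58), and the AP-1 members spread on both sides. The points of Mapk13 and Mmp12 rest on 2 fragments in the group with the lower level. In the empty-vector libraries Mmp9 had 3 and 2 fragments and Mmp3 6 and 2.

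The state of the cells differed along with these genes. All 10 muscle markers were lower in the overexpressing cells (median log2 fold change -1.46), and their summed level was 7745 and 12570 CPM in overexpressing cells against 27260 and 30550 CPM in empty-vector cells, with Acta1 (1586 and 2878 CPM against 6258 and 6829 CPM) and Myh3 (858 and 1929 CPM against 6624 and 7520 CPM) the most abundant by the mean over all 4 libraries. Fibroblast markers summed to 13350 and 13150 CPM in overexpressing cells and 4791 and 3871 CPM in empty-vector cells, 4 of 7 tested being higher and 1 lower, and most of the sum was Col3a1 (12190 and 12140 CPM against 3980 and 3128 CPM), followed by Col1a1 (486 and 493 CPM against 320 and 310 CPM). Of 10 macrophage markers 6 could be tested, 3 higher and 1 lower, and the list summed to 44.7 and 41.4 CPM against 9.11 and 8.27 CPM. Most of the sum in overexpressing cells was Lyz2, at 28.4 and 26.1 CPM in overexpressing cells against 0.135 and 0.0791 CPM in empty-vector cells, and Cd14, at 11.9 and 10.9 CPM against 5.38 and 4.75 CPM. Adgre1 and Fcgr1, defining markers of macrophages, were at 0 in all libraries. Endothelial markers summed to between 1.90 and 2.00 CPM in all libraries, with 2 of 6 tested, Tek lower and Vwf not called, and Tie1 at 0. The part of these differences in the AP-1 values was not tested.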

How the data were processed

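The authors deposited a raw fragment count per gene and library. HISAT2 2.0.4, GRCm38 and featureCounts 1.4.6 are named per the submitters' processing notes, and featureCounts 1.5.1 with GENCODE M12, paired fragments and reverse-strand counting per the file headers. Another deposited table holds, per the file headers, a mean signal, a log2 fold change, a test score and a p-value for each gene, and was used only to set the authors' values beside these.

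Of 49585 genes, 15886 passed edgeR's default filterByExpr (a minimum count of 10 and a total of 15). Groups were compared with edgeR 4.0.16 (R 4.3.3) after TMM scaling (robust glmQLFit, then a 2-sided glmQLFTest), and p-values were adjusted over all tested genes by Benjamini-Hochberg, with 0.05 as threshold. The standard error came from the F statistic. Length is the exonic length in the count files. The test was also run on simulated counts with far fewer changed genes than were called here. That run checks the code and does not give the error rate in these data. Libraries within a group differed by more than sampling noise. Members and lists were chosen with earlier results of these data known, and further genes were named to complete small counts. Egr1, Egr2 and Ier2 were named outside the rule as well-known immediate early genes. Groups came from the sample titles. The rule for named genes took all members, Cebpb, up to 4 tested genes with the smallest p in each related list, the 2 most abundant genes of each marker list and the 3 nearest patterns to Fosl2 and Atf3, whose p was smallest in either direction. Alternatives were other scalings, filters and tools (DESeq2 1.42.0, limma 3.58.1 voom), the replicate number as a block, and each library left out. Counts over lists can include genes whose own values are not reported here.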

Additional observations from a re-analysis of the deposited data

How the results depend on the processing

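No AP-1 member changed direction under any of the 13 alternatives, 1 of which, edgeR's older quasi-likelihood method, was added after seeing the data. Scaling by library sizes alone called 4 other leucine zipper genes higher, against 2. With each library left out in turn, all genes called ran from 4013 to 7541 against 6873, members called higher from 1 to 2 and lower from 1 to 3, other leucine zipper genes lower from 3 to 5, MAP kinase pathway genes higher from 2 to 5 and lower from 1 to 4, phosphatases higher from 0 to 1 and lower from 3 to 7, immediate early genes lower from 7 to 11, AP-1 targets lower from 2 to 7, and stress response genes higher from 0 to 1 and lower from 2 to 6. An arm with 1 library was assumed to vary like the other. The meaning of a shared replicate number is not stated, and deviations of same-numbered libraries correlated at 0.214 over 12657 genes, from 2 numbers only. With the replicate block 7599 genes were called, 5 other leucine zipper genes were higher, 8 phosphatases were lower, and Jdp2 passed (log2 fold change -0.20, adjusted p = 0.0451). The causes of these changes were not tested. Fos, Fosb, Atf3 and Batf3 rest on the fewest fragments.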

Other observations

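The genes whose values across the 4 libraries lay closest to those of Fosl2, by distance between centred log2 CPM with a pseudocount of 0.5 among 12656 genes, were Slc50a1 (distance 0.0188), Dab2 (0.0197) and Prdm11 (0.0214). Those closest to Atf3 were A730013G03Rik (0.0489), Iqgap3 (0.118) and Aurka (0.146). The pseudocount draws genes at low levels together. A730013G03Rik was at 0.86 and 0.44 CPM in overexpressing cells against 1.7 and 1.8 CPM in empty-vector cells. Its log2 fold change was -1.375, beside -1.04 for Atf3. Prdm11, at 4.7 and 4.1 CPM against 2.3 and 2.0 CPM, had one of 1.03, beside 0.89 for Fosl2.

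Genes that lie against members on the other strand were looked at after the annotation was read. Junos, which overlaps 7.28% of the exonic bases of Jun, had 5.40 and 4.32 CPM in overexpressing cells against 1.62 and 1.74 CPM in empty-vector cells (log2 fold change 1.54, edgeR adjusted p = 0.000684), while Jun itself overlapped between groups. Ccdc85b lies on the strand opposite Fosl1, and 52.6% of the 50-base windows of Fosl1 transcripts in GENCODE M21 match it in the opposite orientation. In the GENCODE M12 annotation used for counting, the 2 genes share 0 exonic bases. Ccdc85b had 29.5 and 25.6 CPM in overexpressing cells against 13.2 and 14.1 CPM in empty-vector cells (log2 fold change 1.01, edgeR adjusted p = 0.000343). Prdx2, which overlaps 7.52% of the exonic bases of Junb, had 360 and 343 CPM in overexpressing cells against 271 and 247 CPM in empty-vector cells (log2 fold change 0.44, edgeR adjusted p = 0.00728).

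In the authors' deposited table, the mean signal of Fosl1 was 3.44 times the mean of these 4 libraries and that of Batf3 2.59 times, while for the other 8 members it was 0.888 to 1.13 times, and libraries beyond these may have gone into it. The authors' deposited table gives Jdp2 a log2 fold change of -0.26 with an adjusted p of 0.0305, and Junb one of -0.36 with an adjusted p of 0.0576.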
